A study of Mus musculus with 12 samples.

Results

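Broad stretches of open chromatin that every library called were described in mouse macrophages before and after lipopolysaccharide. The peaks of the 12 libraries were pooled, peaks that overlapped by at least 1 bp were joined into regions, and an autosomal region was kept when all 12 libraries held a peak in it and its joined width reached 2000 bp. This gave 246 regions out of 115231 joined regions, and out of 41745 autosomal regions that all 12 libraries called, here named always-open regions. The broad regions were 0.589% of the always-open regions and 1.53% of their base pairs (544 of 35669 kb). The regions were thus selected on the deposited peak intervals, that is on width and on presence in every library, and both are given only as a description.

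The cells were bone marrow-derived macrophages of female C57BL/6 mice, cultured for 9 days with a 20% L929 supplement. The groups were wild type (WT) and lincRNA-EPS knockout (KO, lacking that noncoding RNA), each at 0, 2 and 6 h of lipopolysaccharide (LPS, 100 ng/ml), with 2 libraries per genotype and time, so that a time had 4 libraries and a genotype 6. LPS is a component of the bacterial outer membrane, and the 0 h cells are the untreated control of both genotypes. In ATAC-seq the Tn5 transposase inserts adapters into accessible DNA, here of 50000 cells per reaction, and a peak marks a place where insertions pile up. Whether the 2 libraries of a group stem from different mice or cultures is not stated in the labels, so p-values here reflect library-to-library spread, part or all of which may be technical. The peak names inside the lists of the 4 libraries labelled 2 h give 1 h, and the labels were followed.

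Accessible DNA is usually interrupted by nucleosomes, and a promoter or enhancer commonly opens as a short stretch between them. A wide accessible region can be a single long open stretch, or several neighbouring open stretches that lie too close for a peak caller to part. LPS acts on macrophages through a cell-surface receptor whose signals activate inflammatory and interferon-response genes, and accessibility is known to change at many regulatory elements as this happens. All positions below are on the mm9 build. No annotation of that build was used here, so regions are named by position only. Macrophage marker genes and the deleted lincRNA-EPS locus were not analysed here.

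Peak lists held 54771 to 91610 peaks per library. Read totals were not used here, but the coverage at each summit, in reads, and the local background it was compared with were recovered from the deposited fold and p. The lowest local background of a list, which follows sequencing depth, ran from 1.43 reads (KO, 0 h, replicate 2) to 3.35 reads (KO, 6 h, replicate 1), with a mean of 2.01 ± 0.50 at 0 h, 2.80 ± 0.34 at 2 h and 2.59 ± 0.55 at 6 h (SD, n = 4 libraries each). Depth thus moved with time, and an alternative fit carried it as a covariate.

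The width of the broad regions ran from 2000 to 3732 bp with a median of 2136.5 bp. Of the 246 regions, 98 were under 2100 bp, 23 were at least 2500 bp and 2 were at least 3000 bp. The narrowest region, chr14:55081899-55083898 (2000 bp), had a mean percentile of 56.5 and a mean fold of 7.23, and the widest region below the limit, chr6:140372187-140374185, which was 1 bp narrower, had 47.2 and 7.13. Percentile here means the rank of a region's highest −log10 q among the 41745 always-open regions of the same library, from 0 to 100, and fold is the authors' ratio of summit to local background. The 98 regions just inside the limit had a median percentile of 62.1, and the 154 always-open regions from 1900 bp up to the limit had 70.8. No autosomal region of 2000 bp or more was called in fewer than 12 libraries.

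Most broad regions were split into several peaks by at least 1 library. Only 14 of the 246 (5.69%) were a single peak in each of the 12 libraries, against 84.6% of the 41499 narrower always-open regions and 21.5% of the 1785 always-open regions from 1500 bp up to the limit of 2000 bp, the next narrower class. At least 2 peaks in each library were found in 37 broad regions. Over all pairs of a region and a library, 1053 pairs held 1 peak, 1485 held 2, 381 held 3, 32 held 4 and 1 held 5. A single peak of 2000 bp or more was called in at least 1 library in 115 regions (46.7%), in exactly 1 library in 69, and in all 12 libraries in 1. The part of a region that all 12 libraries covered was 50.5% of its width at the median (1123.5 bp), close to the 56.1% of the narrower regions. In 2 broad regions no base was covered by all 12.

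The joined width rested on the LPS-treated libraries in many regions. When only the 4 libraries at 0 h were joined, the longest joined piece still reached 2000 bp in 46 of the 246 regions, and its median width was 1520.5 bp. The 4 libraries at 2 h alone gave 119 regions and a median of 1993.5 bp, and the 4 at 6 h alone gave 123 regions and 1998.5 bp. Mean background coverage was also lowest at 0 h, with 2.01 reads against 2.80 at 2 h and 2.59 at 6 h. These widths are not corrected for depth, and the part of depth in them was not tested. The 6 WT libraries alone gave 166 regions, and the 6 KO libraries gave 135. Leaving out 1 library at a time and asking for a call in the other 11 left 215 regions (without WT, 2 h, replicate 1) to 244 (without either KO library at 0 h).

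The local background recovered for the broad regions was higher than that of narrower always-open regions. The caller settings are not known, and whether the reads of a wide region raise its own local background was not tested. The local background was at least 5 times the library's lowest in 139 of 246 regions (56.5%), in 31.1% of the next narrower class and in 10.8% of all narrower always-open regions, with median ratios of 5.40, 4.17 and 2.32. The median summit coverage was 87.9 reads, against 84.8 and 53.3, while the median fold was 6.44, against 7.65 and 7.95. Broad regions thus had higher summit coverage than all narrower regions and a somewhat lower fold. Their median percentile was 64.2, against 71.0 in the next narrower class and 48.3 in all narrower regions, and 188 broad regions lay above the 50th percentile.

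The strongest summit often sat at different places in different libraries. The 12 strongest summits of a region were within 100 bp of each other in 40 broad regions (16.3%) and at least 500 bp apart in 106 (43.1%). In the next narrower class the share at least 500 bp apart was 28.7%, and among all narrower always-open regions it was 5.20%. The greater width leaves more room for this, and no test was made.

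Broad regions were spread over all 19 autosomes, from 8 on chromosome 9 (3.60 per 1000 always-open regions there) to 21 on chromosome 3 (8.91 per 1000). The median distance to the nearest other broad region was 3169277 bp, and 12 regions had another within 100 kb. The closest pair lay 22073 bp apart on chromosome 10. A further called region lay within 10 kb of 186 broad regions (75.6%), against 85.5% of the narrower ones.

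The widest region was chr17:39980001-39983732, at 3732 bp. It was a single peak of 3425 to 3702 bp in each of the 12 libraries, and it was the only broad region with a peak of at least 2000 bp in every one. Its fold was 2.22 ± 0.17 (SD, n = 12), the lowest of all 246 regions, while its summit coverage, 164 to 289 reads, was the highest on average (236). The local background was 44.5 ± 9.9 times the library's lowest (SD, n = 12). That ratio was 54.5 ± 6.0 at 0 h, 45.4 at 2 h and 33.6 ± 5.3 at 6 h (SD, n = 4).

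The next widest regions had other shapes. The region chr9:85219117-85222242 (3126 bp) held a single peak in 1 library, with a called length of 1948 to 3041 bp and strongest summits within 40 bp of each other. The region chr18:39648597-39651482 (2886 bp) was a single peak in 9 libraries, and all 12 libraries covered 79.3% of it. In chr4:141100855-141103635 (2781 bp) no library had a single peak, and 28.4% of the width was covered by all 12. The region chr13:5801405-5804184 (2780 bp) was called over 1826.5 ± 108 bp at 0 h and 2543 ± 139 bp at 6 h (SD, n = 4). In chr3:30992201-30994973 (2773 bp) no peak of any library exceeded 1703 bp.

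The 5 highest-ranked broad regions kept their rank in every library. They were chr19:14671547-14673577 (mean percentile 98.8 ± 0.75, SD, n = 12), chr10:86167436-86169496 (98.7 ± 0.56), chr5:46246854-46249511 (98.0 ± 0.75), chr8:75876406-75878418 (98.0 ± 0.93) and chr12:41171860-41174010 (97.3 ± 0.97). The lowest single value among these 5 regions and 12 libraries was 95.7. At the other end, chr1:87487691-87489942 had a mean percentile of 3.81 ± 3.69 (SD, n = 12). Its peaks of 12 libraries shared no base, and its strongest summits were up to 1970 bp apart, with 17 to 38 reads at the summit. The region chr13:37917673-37919976 averaged 8.04 ± 4.24 and chr5:108152958-108155619 averaged 8.19 ± 8.98. The latter also had no base called in all 12 libraries.

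**Figure D1:**
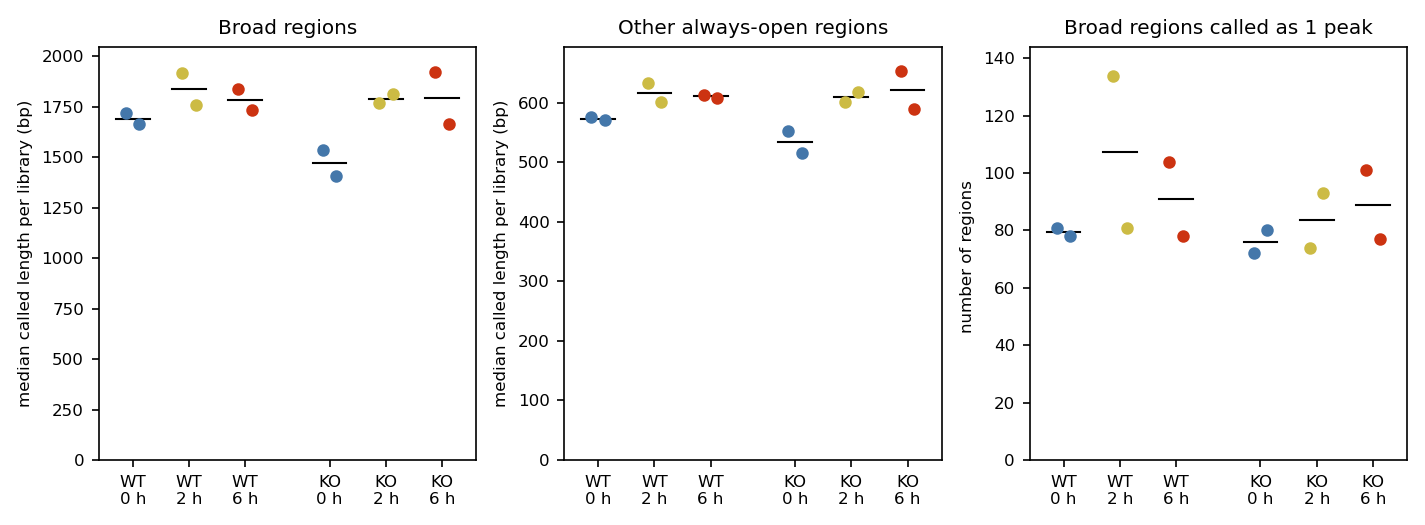
Called length per library, as points for the 2 libraries of each genotype and time and a bar for their mean. The left and middle panels plot the median base pairs under peaks in the 246 broad regions and in the 41499 narrower always-open regions, and the right panel the number of broad regions called as 1 peak. The KO libraries at 0 h, which had the lowest background coverage, had the shortest called length (1534.5 and 1404.5 bp).

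The base pairs under peaks, called length for short, were compared per library. The median called length of the broad regions was 1580 ± 140 bp at 0 h, 1813 ± 73 bp at 2 h and 1789 ± 114 bp at 6 h (SD, n = 4). In WT the libraries gave 1719.5 and 1663 bp at 0 h, 1915 and 1756.5 bp at 2 h, and 1836 and 1734 bp at 6 h. In KO they gave 1534.5 and 1404.5 bp at 0 h, 1766 and 1814.5 bp at 2 h, and 1922.5 and 1663 bp at 6 h. All 4 libraries at 2 h were above the 4 at 0 h, while those at 6 h overlapped the 0 h range. Called length in the broad regions was 2.85 ± 0.12 times that of the narrower regions at 0 h, 2.96 ± 0.05 at 2 h and 2.90 ± 0.08 at 6 h. Since joined width decided membership, these lengths are not independent of the 2000 bp limit and are given as a description. Between 72 and 134 broad regions were a single peak in a given library, the most in WT at 2 h, replicate 1.

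To compare regions between libraries, the percentile was turned into a normal score, called the rank score, and called length was taken as log2 and centred on each library's median over the always-open regions. Both were fitted with limma over all 41745 regions, with Benjamini-Hochberg adjustment over all of them and a threshold of 0.05. The first question was which broad regions changed with LPS, with both genotypes averaged.

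After 6 h of LPS, 37 broad regions had changed in rank score, and far more had fallen than risen. The rank score was lower in 32 regions (13.0%) and higher in 5 (2.03%). Of all always-open regions, 13.4% were lower and 12.9% were higher, so the share that fell was near the background, while few broad regions rose. In the next narrower class 12.2% were lower and 3.81% were higher. None of the 5 that rose reached 2000 bp when the 0 h libraries alone were joined, and 3 did with the 6 h libraries alone. Of the 32 that fell, 6 reached it at 0 h alone and 14 at 6 h alone. The counts are thus not independent of the width rule and are given as a description. The 4 libraries at 6 h did not overlap the 4 at 0 h in 5 of the 5 that rose and 27 of the 32 that fell. The fit picked these regions on the same libraries, so the lack of overlap is no separate support. Its share over the always-open regions is not given here. All 37 moved the same way in WT and in KO when each was taken alone. The fit that called them averaged both genotypes over the same libraries, so this is largely built in. The 2 h mean lay between the means of 0 and 6 h in 4 of the 5 and 28 of the 32, with a median of 20.2% and 25.9% of the 6 h change present at 2 h. Over all 246 regions the median difference was −0.11 on the score, against −0.04 over all always-open regions, and 173 regions (70.3%) were below 0, against 53.6%.

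These counts moved with the values ranked and with depth. Ranking the fold gave 3 higher and 14 lower, and adding background coverage as a covariate gave 3 and 19. The always-open shares under these settings are not given here, so the drops cannot be read as particular to broad regions. Ranking summit coverage, an alternative added after the data were examined, gave 24 higher (background 16.1%) and 34 lower (18.1%). Without WT, 0 h, replicate 2 the count of lower regions was 18, and without WT, 6 h, replicate 2 it was 20. The count of higher regions was 3 without WT, 0 h, replicate 1, without WT, 6 h, replicate 1, or on leaving out KO, 0 h, replicate 2, and 2 if KO, 6 h, replicate 2 was left out.

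The summit coverage itself fell in most of the 32 regions with a lower rank. The −log10 q that is ranked depends on this coverage, so the overlap is partly built in and is given as a description. On the summit-coverage rank 23 of the 32 were also called lower and 2, on chromosomes 14 and 6, were called higher, and 5 of the 5 with a higher rank were also called higher. Taken relative to the library's median, summit coverage at 6 h was below every 0 h library in 25 of the 32. Over all 246 broad regions that held in 55 (22.4%), and the reverse in 6 (2.44%), against 18.4% and 11.6% of the always-open regions. Local background, relative to the library's lowest, was above every 0 h library in 23 broad regions (9.35%) and below in 17 (6.91%), against 7929 and 3850 of the 41745 always-open regions.

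**Figure D2:**
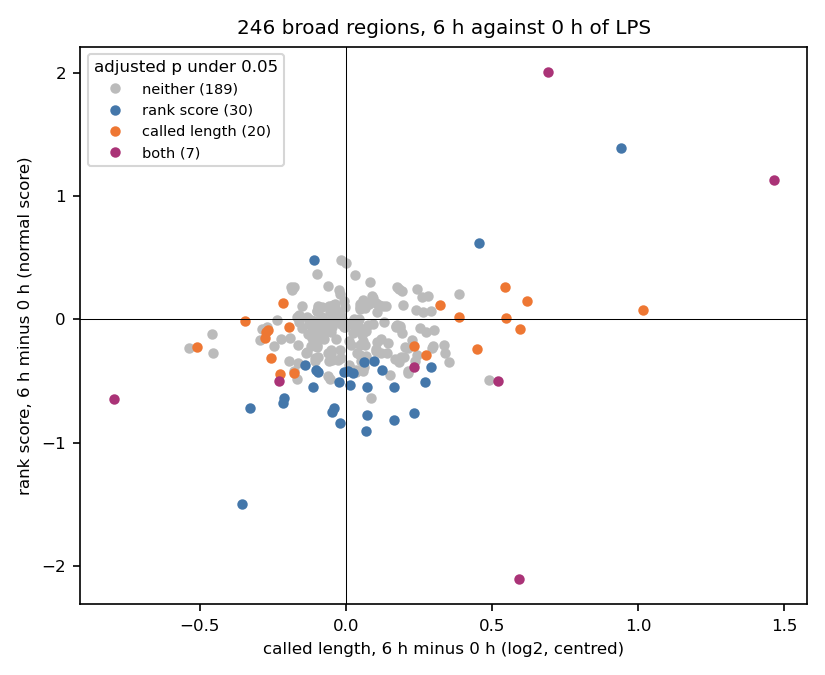
Difference between 6 h and 0 h of LPS in rank score (vertical axis, normal score) and in called length (horizontal axis, log2, centred) for each of the 246 broad regions, both genotypes averaged. Colours mark the regions past the threshold on 1 measure or both, and most of the 37 rank calls lie below 0.

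The region chr9:85735522-85737699 (2178 bp) rose the most. Its percentile was 4.30 and 6.29 in WT and 3.08 and 6.52 in KO at 0 h. At 2 h it was 3.68 and 13.2 in WT and 23.6 and 26.8 in KO, and at 6 h it was 53.3 and 65.8 in WT and 61.9 and 72.3 in KO. All 4 libraries at 6 h thus lay far above the 8 earlier ones. The rank score rose by 2.00 (SE 0.25). Summit coverage went from 17 to 26 reads at 0 h to 73 to 97 reads at 6 h, or from 0.487 ± 0.036 to 1.45 ± 0.11 times the library's median (SD, n = 4). Its local background rose too, from 1.99 to 4.39 times the library's lowest. The called length was 763 to 1263 bp at 0 h and 1619 to 2014 bp at 6 h (log2 difference 0.69, SE 0.13). The libraries joined to at most 836 bp at 0 h, 938 bp at 2 h and 2163 bp at 6 h. This region is thus a member through the 6 h libraries in which its rank is high. Its rank difference and its length are a description, and no p is given for them. With the fold ranked the rank difference was 1.13.

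Other named regions rose from lower or middle ranks. The region chr19:10059949-10061953 (2005 bp) had percentiles of 3.03, 6.23, 2.97 and 23.4 at 0 h, 0.03, 2.74, 1.66 and 7.96 at 2 h, and 29.5, 29.0, 38.8 and 44.6 at 6 h, in the order WT replicates 1 and 2 and KO replicates 1 and 2. It was a single peak in every library, and the highest 0 h library stayed below the lowest at 6 h. Its rank score rose by 1.13 (SE 0.35). The libraries joined to 838 bp at 0 h, 1078 bp at 2 h and 2005 bp at 6 h, so this rise is a description. The call was lost on leaving out replicate 1 or 2 of WT at 6 h or replicate 2 of KO at 6 h. It was also lost without replicate 1 of WT at 0 h or replicate 1 of KO at 0 h. The region chr5:108152958-108155619 (2662 bp) went from 1.98 ± 1.79 to 15.1 ± 13.2 in percentile (SD, n = 4). Its rank score rose by 1.39 (SE 0.42, limma adjusted p = 0.014), and 4 libraries each decided the call when left out, replicate 1 of WT at 0 h and replicate 2 of WT at 6 h, of KO at 0 h and of KO at 6 h (adjusted p = 0.057 to 0.11). Without the KO library at 0 h the difference was 0.82. With depth as a covariate the adjusted p was 0.085, and the difference was 0.86 with the fold ranked and 0.65 with summit coverage ranked. The region chr1:77510963-77513251 (2289 bp) went from 35.1 ± 6.3 to 58.9 ± 9.2, and its rank score rose by 0.62 (SE 0.19, limma adjusted p = 0.015). That call was lost on leaving out replicate 1 of WT at 0 h, replicate 1 of WT at 6 h or replicate 2 of KO at 6 h (adjusted p = 0.066 to 0.095), and with the fold ranked, where the difference was 0.35 (adjusted p = 0.22).

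The region chr14:103457135-103459255 (2121 bp) fell the most in rank, but not in summit coverage. Its percentile was 97.7, 99.7, 98.3 and 99.7 at 0 h, 99.1, 98.6, 98.0 and 99.4 at 2 h, and 78.1, 58.8, 47.2 and 61.7 at 6 h, in the same order. All 4 libraries at 6 h lay below all 8 earlier ones. The rank score fell by 2.1 (SE 0.17). The libraries joined to 1216 bp at 0 h, 1413 bp at 2 h and 2121 bp at 6 h, so this region is a member through its 6 h libraries. Its differences between 0 and 6 h are thus a description, and no p is given for them. The summit held 118 to 149 reads at 0 h and 153 to 194 reads at 6 h, which is 2.99 ± 0.44 and 3.02 ± 0.20 times the library's median (SD, n = 4). On the summit-coverage rank the region was 0.48 higher at 6 h (SE 0.13), so the direction turned, and with the fold ranked it was 3.82 lower.

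The recovered local background of this region and its length differed between the times. The local background was 4.49 ± 0.80 times the library's lowest at 0 h, 5.26 ± 0.62 at 2 h and 19.4 ± 2.4 at 6 h (SD, n = 4). It was one peak in all 12 libraries, of 1085 to 1187 bp at 0 h, 1240 to 1390 bp at 2 h and 1634 to 2121 bp at 6 h. The log2 difference of called length was 0.59 (SE 0.08), given as a description, since the 0 h libraries alone joined to 1216 bp and the 6 h libraries to 2121 bp. A stretch of 389 bp, from base 434 to 822 of the region, was under a peak in 4 of 4 libraries at 6 h, under none at 0 h and covered in full in 0 of 4 at 2 h, while the strongest summits of all 12 libraries stayed within 108 bp. The −log10 q sets the summit against the local background, so a higher background lowers it at equal coverage. Whether this accounts for the fall in rank here was not tested.

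**Figure D3:**
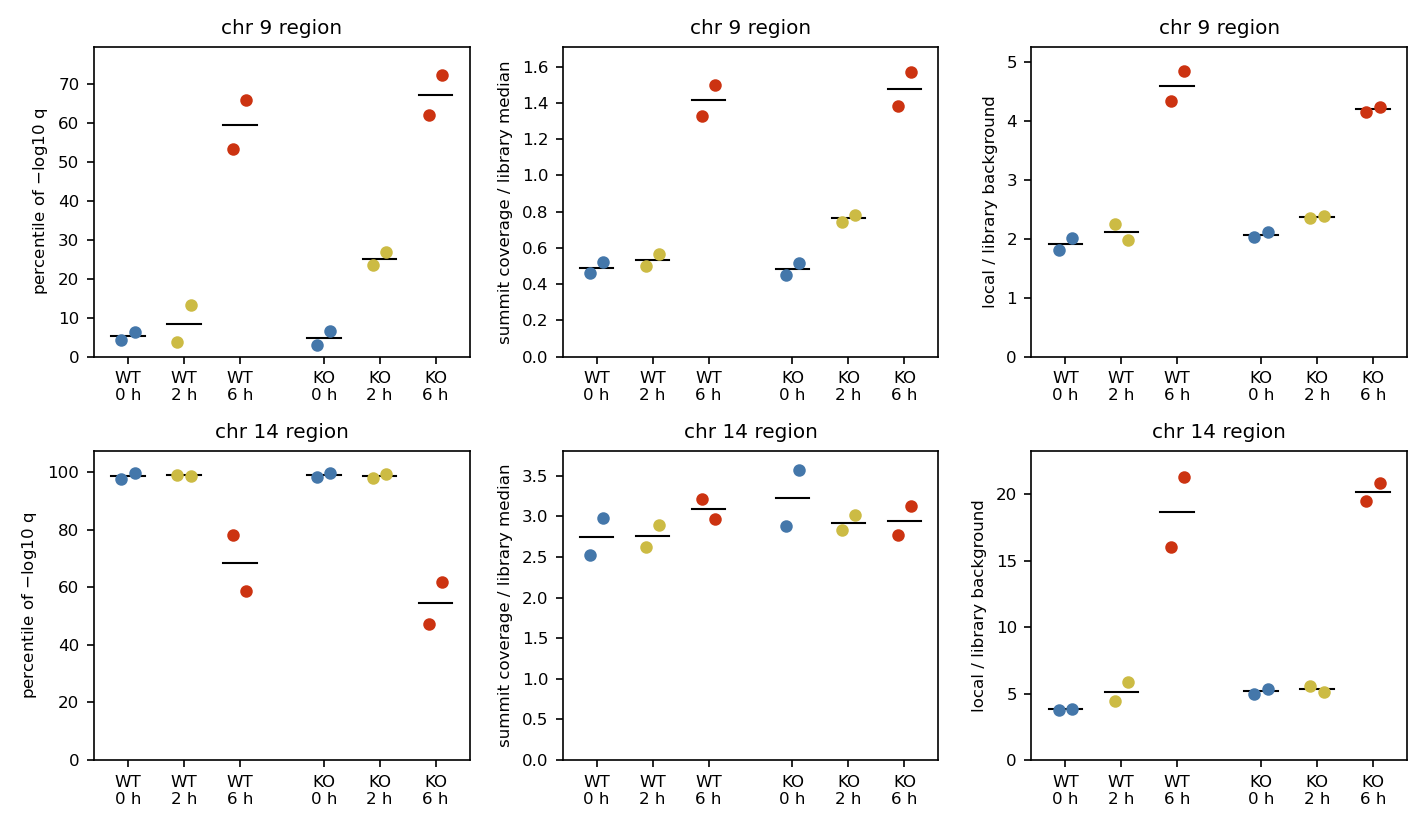
Percentile of −log10 q, summit coverage relative to the library's median and local background relative to the library's lowest, for the chromosome 9 region that rose the most (top) and the chromosome 14 region that fell the most (bottom). Points are the 2 libraries of each genotype and time and bars their mean, and in the chromosome 14 region the percentile falls at 6 h while summit coverage stays near 3.02 times the median and local background reaches 19.4.

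The other named regions fell in summit coverage as well. The region chr9:16304933-16307027 (2095 bp) had percentiles of 37.6, 29.5, 46.2 and 32.3 at 0 h, 18.2, 20.4, 33.9 and 17.9 at 2 h, and 3.2, 3.49, 5.93 and 1.55 at 6 h. Its rank score fell by 1.49 (SE 0.27, limma adjusted p = 0.0001), and relative summit coverage went from 0.908 ± 0.080 to 0.503 ± 0.054 (SD, n = 4), with no overlap. Local background was 2.74 times the library's lowest at 0 h and 2.53 times at 6 h. The region chr2:91022155-91024419 (2265 bp) went from 64.1 ± 8.3 to 30.1 ± 10.8 in percentile, and its rank score fell by 0.90 (SE 0.18, limma adjusted p = 0.00026). With the fold ranked, its difference was −0.58 (limma adjusted p = 0.057). The region chr10:118304920-118307222 (2303 bp) went from 94.7 ± 2.0 to 78.4 ± 6.8, and its rank score fell by 0.84 (SE 0.14, limma adjusted p = 3.5e-05). Its relative summit coverage went from 2.96 ± 0.12 to 2.28 ± 0.20, and with summit coverage ranked the difference was −0.44. Its strongest summits lay within 19 bp in all 12 libraries, so the same point of the region was compared each time.

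At 2 h no broad region passed the threshold in rank score, in either direction, where 1.5% of the always-open regions were higher and 0.158% lower. The limma fit gave 4 broad regions higher (1.63%) and 7 lower (2.85%) at an unadjusted p under 0.05, against 7.28% and 5.18% of the always-open regions, and the lowest adjusted p was 0.13. Leaving out KO, 0 h, replicate 1 gave 1 higher region.

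Called length changed in 27 broad regions between 0 and 6 h. It was higher in 15 (6.10%) and lower in 12 (4.88%), near the 4.95% and 4.76% of all always-open regions. The groups of libraries did not overlap in 12 of the 15 and 10 of the 12, and all 27 moved the same way in WT and KO. The fit picked these regions on the same libraries with both genotypes averaged, so neither count is separate support. The share without overlap over the always-open regions is not given here, so that count cannot be read as particular to broad regions. The 2 h mean lay between the others in 15 of the 15 and 11 of the 12. None of the 15 longer regions reached 2000 bp when the 0 h libraries alone were joined, and 9 did with the 6 h libraries alone, so these counts are not independent of the width rule and are given as a description. For the same reason no p is given for the length of a single region. Of the 12 shorter regions, 6 reached 2000 bp at 0 h alone and 4 at 6 h alone.

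The balance between longer and shorter regions rested on the centring. Without centring on each library's median, 49 regions were longer and 2 shorter, because the median difference over all always-open regions was then 0.11 higher at 6 h. With background coverage as a covariate 6 were longer and 3 shorter. The always-open shares under these settings are not given here, so the changes in count cannot be read as particular to broad regions. The count of shorter regions was 5 without WT, 0 h, replicate 1, 7 without WT, 0 h, replicate 2 and 6 without WT, 6 h, replicate 2.

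Of the 37 regions called on rank and the 27 called on length, 7 were called on both (18.9% and 25.9%), 4 in the same direction and 3 in opposite directions. One of the opposite ones, beside the chromosome 14 region, was chr6:123238975-123241051 (2077 bp). Its percentile was 71.8, 71.9, 81.3 and 82.3 at 0 h and 63.9, 60.0, 55.8 and 59.0 at 6 h, and its called length was 1066, 1007, 1128 and 1350 bp at 0 h and 1688, 1710, 1905 and 1928 bp at 6 h. Neither measure overlapped between the times. Its local background went from 4.11 to 4.86 and 8.54 times the library's lowest. Its summit coverage went from 1.74 to 1.90 times the library's median, and on the summit-coverage rank it was 0.36 higher at 6 h (SE 0.10), so the direction of the rank turned here too. The libraries at 0 and 2 h joined to 1915 bp and those at 0 and 6 h to 2077 bp. This region is thus a member only with its 6 h libraries, and its values are a description. The third was chr9:90007952, from 79.8 to 67.4 in mean percentile and from 1393.5 to 1820 bp in mean called length.

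Among the regions that lengthened, chr19:10059949-10061953 changed the most. Its called length was 370, 709, 495 and 749 bp at 0 h, 581, 874, 923 and 821 bp at 2 h, and 1532, 1816, 2005 and 1551 bp at 6 h. The 4 libraries at 6 h were all longer than the 8 earlier ones, and the log2 difference was 1.46 (SE 0.23). The libraries joined to 838 bp at 0 h, 1078 bp at 2 h and 2005 bp at 6 h, so this region is a member through its 6 h libraries. The region chr6:148843514-148845525 (2012 bp) went from 1063 ± 224 to 1791 ± 176 bp (SD, n = 4; log2 difference 0.62, SE 0.10). The region chr10:92622846-92624900 (2055 bp) went from 1191 ± 170 to 1518 ± 83 at 2 h and 1987 ± 48 bp at 6 h (log2 difference 0.60, SE 0.08). Both of these also reached 2000 bp at 6 h (2012 and 2055 bp) but not at 0 h (1260 and 1370 bp) or 2 h (1782 and 1642 bp). Its percentile was 51.4 ± 8.5 at 0 h and 48.3 ± 9.2 at 6 h, ranges that overlapped.

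The clearest shortening was in chr2:128253815-128255859 (2045 bp). Its called length was 1832, 1925, 1773 and 1732 bp at 0 h, 1883, 1949, 1942 and 1913 bp at 2 h, and 1189, 956, 1368 and 1179 bp at 6 h. All 6 h libraries were shorter than all others, and the log2 difference was −0.79 (SE 0.07). Its rank score fell as well (difference −0.65, SE 0.16, limma adjusted p = 0.0023), from a percentile of 71.9 ± 8.0 to 47.8 ± 8.4. The region chr10:79610554-79612569 (2016 bp) went from 1507 ± 155 to 1180 ± 131 bp after 1861 ± 111 bp at 2 h (SD, n = 4; log2 difference −0.51, SE 0.07). Smaller differences were found in chr15:96528938-96530975 (2038 bp; −0.28, SE 0.06) and chr2:5634231-5636321 (2091 bp; −0.27, SE 0.05), and without centring these were −0.12 and −0.12.

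At 2 h 1 broad region was longer than at 0 h and 0 were shorter, where 0.192% and 0.00719% of always-open regions were called. At an unadjusted p under 0.05 the limma fit gave 37 of 246 longer and 17 of 246 shorter, against 6.08% and 5.99% of the always-open regions. Joined alone, the 2 h libraries reached 2000 bp in 119 of the 246 regions and the 0 h libraries in 46. Neither length count is thus independent of the width rule, and both are given as a description. The called region was chr17:48060445-48062622 (2178 bp), with 1030, 1084, 1047 and 1038 bp at 0 h, 1965, 1652, 1510 and 1954 bp at 2 h, and 1269, 1456, 1310 and 985 bp at 6 h. Its log2 difference was 0.60 (SE 0.09), and each of the 12 fits that left out 1 library, the replicate block and the depth covariate lost the call. The libraries joined to 1167 bp at 0 h, 2178 bp at 2 h and 1322 bp at 6 h, so this region is a member through the 2 h libraries in which it is long, and its length at 2 h is a description. By 6 h its length had returned to overlap 0 h.

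**Figure D4:**
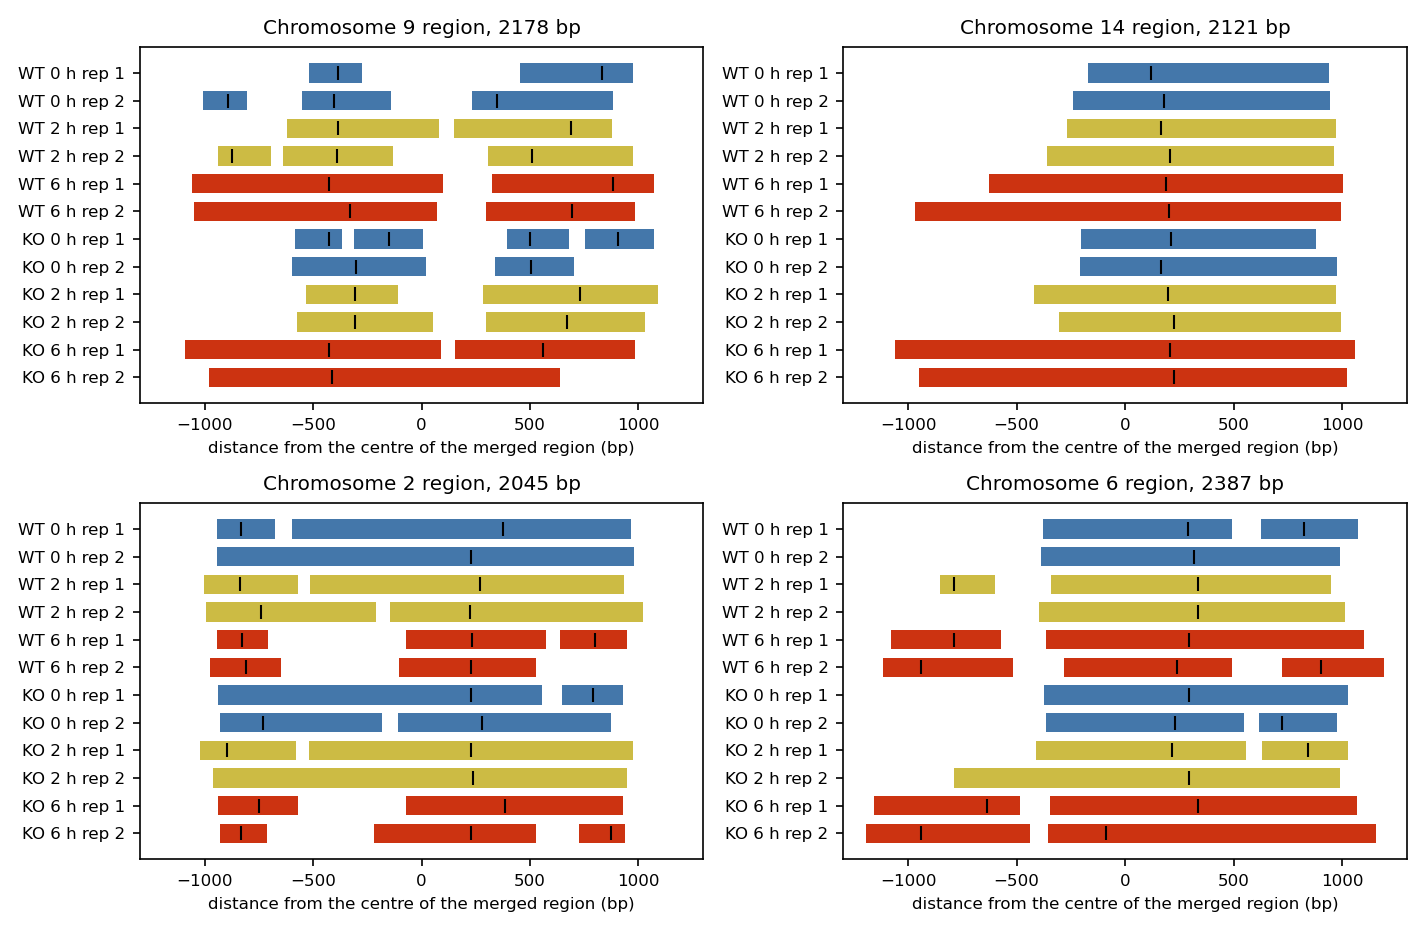
Peaks of each library in 4 broad regions, with the distance from the centre of the joined region in bp on the horizontal axis and 1 row per library. Bars are peaks (blue 0 h, yellow 2 h, red 6 h) and black ticks their summits. At 6 h peaks extend to the left in the chromosome 9 and 14 regions, a separate peak lies left of the main one in the chromosome 6 region, and a gap lies left of the main summit in the chromosome 2 region.

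Where the length changed inside a region was read from the peaks directly. A stretch of at least 100 bp under a peak in 4 of 4 libraries at 6 h and 0 of 4 at 0 h, called gained, was present in 28 broad regions (11.4%), against 2.65% of the always-open regions and 7.11% of the next narrower class. The reverse, called lost, was present in 3 broad regions (1.22%), against 0.0958%. At 2 h, 13 broad regions held a gained stretch (background 0.587%) and 0 a lost one (0.0024%). Wider regions hold more bases in which a stretch can lie, and the joined width itself grows with gained stretches, so these shares were not compared by a test. A stretch lost in the 0 to 6 h comparison was found in 6 regions without KO, 0 h, replicate 2, and 5 had one when KO, 6 h, replicate 1 was left out. With fewer libraries the rule is looser, so such counts can only stay or rise. With a minimum of 200 bp the counts were 13 gained and 1 lost.

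The longest gained stretches were 509 bp in chr6:145693763-145696149 (2387 bp), 467 bp in chr6:123238975-123241051, 441 bp in chr10:92622846-92624900 and 425 bp in chr19:10059949-10061953. None of these 4 stretches was covered in full by a peak of any library at 2 h. In chr6:145693763 the gained stretch ran from base 113 to 621, and the called length went from 1341 ± 60 to 2042 ± 180 bp (SD, n = 4; log2 difference 0.45, SE 0.08). Its percentile was 58.0 ± 8.5 at 0 h and 48.7 ± 18.1 at 6 h, with overlap. The longest lost stretch, 351 bp, ran from base 452 to 802 of chr2:128253815-128255859, and 2 of 4 libraries at 2 h still covered it in full. The others were 155 bp in chr2:160445563-160448051 (2489 bp) and 106 bp in chr12:101437181-101439252 (2072 bp).

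In a few regions separate peaks became 1. At 0 h every library held at least 2 peaks, and at 6 h every library held 1, in chr17:73266505-73268870, chr4:63069752-63072056 and chr5:109985710-109988188 (3 of 246, 1.22%, against 0.0838% of the always-open regions). These regions were named after their values were seen. The opposite was found in 0 broad regions (0.0838%). In the next narrower class 0.560% had joined and 0.616% had split in this way. A region that is 1 peak in every library, as 84.6% of the narrower always-open regions were, can show neither state. No test was made. In chr4:63069752 the number of peaks was 3, 3, 2 and 3 at 0 h, 2 in all 4 libraries at 2 h and 1 in all 4 at 6 h. At 2 h, chr1:36612880 and chr17:88654964 held 1 peak in all 4 libraries and at least 2 in all 4 at 0 h (0.0647%), with the opposite in 0 (0.0311%). In the next narrower class these shares were 0.448% and 0.168%. In chr17:88654964 the peaks had parted again at 6 h, with 2, 2, 2 and 3 per library.

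The strongest summit moved within some regions. In 12 of 246 (4.88%) the strongest summits of the 4 libraries at 6 h and the 4 at 0 h did not overlap and their medians were at least 300 bp apart, against 0.527% of the always-open regions and 2.07% of the next narrower class. A narrow region has no room for such a move, so the shares were not tested against each other. In chr11:62363149-62365390 (2242 bp) the summit lay at base 1395, 1452, 1410 and 1484 from the region's start at 0 h and 1411, 1486, 1410 and 1411 at 2 h. At 6 h it lay at base 309, 329, 311 and 326. The 8 earlier libraries thus marked 1 place and the 4 libraries at 6 h another, and the median moved by −1112.5 bp between 0 and 6 h.

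Its relative summit coverage went from 1.77 ± 0.22 to 1.27 ± 0.09 (SD, n = 4), and its rank score fell by 0.50 (SE 0.17, limma adjusted p = 0.032). The summit of chr17:45709349-45711563 (2215 bp) moved by −1568.5 bp between the medians, with 1 of the 4 libraries at 0 h at base 892 and the rest between base 1899 and 1909. That of chr13:37917673-37919976 moved by 1070.5 bp, at 25 to 48 reads of coverage. In chr10:114686938-114689033 (2096 bp) the medians differed by 925.5 bp, but WT, 6 h, replicate 2 lay at base 751, beside WT, 0 h, replicate 1 at base 750. Without 1 of the 8 libraries at a time, 13 to 18 regions passed. With fewer libraries the no-overlap condition is looser, so this rise is partly built in.

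**Figure D5:**
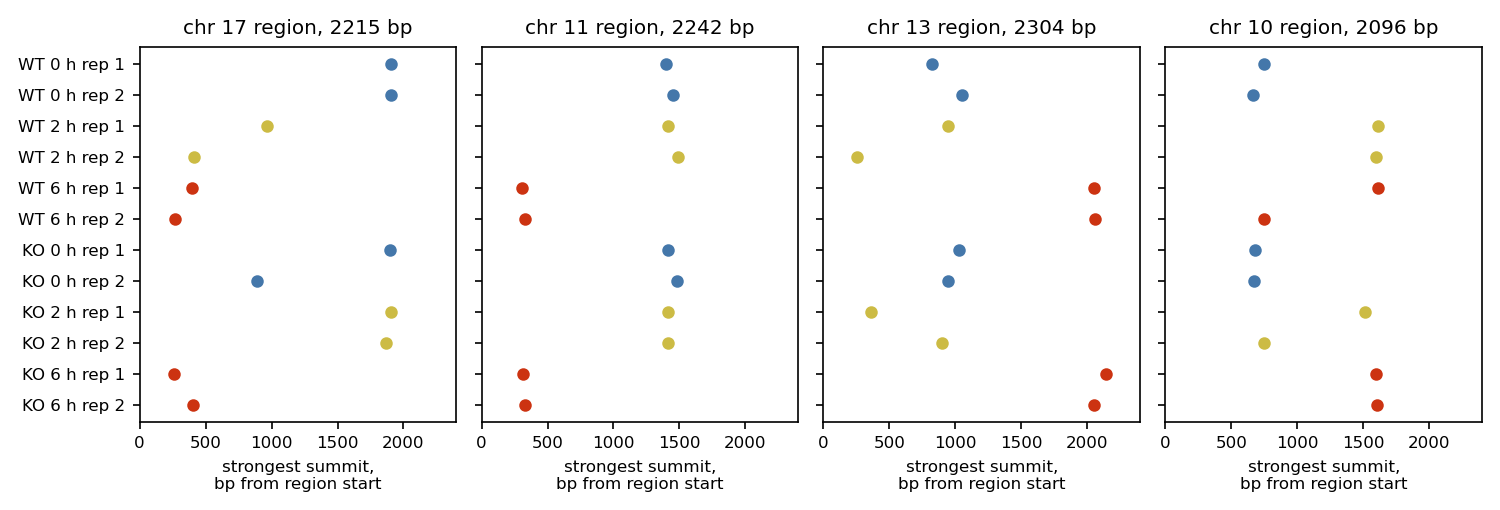
Position of the strongest summit in each library, in bp from the start of the region, for the 4 broad regions in which it moved the furthest between 0 and 6 h. Each point is 1 library (blue 0 h, yellow 2 h, red 6 h), and in the chromosome 11 region the 6 h libraries sit between 309 and 329 bp while all others sit between 1395 and 1486 bp.

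The other question was whether the broad regions differed between genotypes. On the rank score 0 regions were higher and 0 lower in KO, averaged over the 3 times, with 0.0216% and 0.024% of the always-open regions called. At an unadjusted p under 0.05 limma gave 2 higher (0.813%) and 6 lower (2.44%), against 3.64% and 3.81% of the always-open regions, and the lowest adjusted p was 0.55. On called length 0 were longer and 0 shorter (0.0% of always-open regions in each direction), with a lowest limma adjusted p of 0.34. At an unadjusted p under 0.05, 5 were longer (2.03%) and 33 shorter (13.4%), against 2.81% and 3.66% of the always-open regions. The median log2 difference in length was −0.04, and 160 of 246 regions (65.0%) were below 0, against a median of 0.0013 and 49.4% over all always-open regions. The 6 WT libraries alone joined to 2000 bp or more in 166 regions, and the 6 KO libraries in 135. These length counts are thus not independent of the width rule and are given as a description. The background coverage, which follows depth, was 2.43 ± 0.76 reads in KO and 2.51 ± 0.31 in WT (SD, n = 6), and both KO libraries at 0 h were the lowest of the 12. The part of depth in these length counts was not tested. Ranking the fold, ranking summit coverage and the depth covariate also gave 0 calls on the rank score between genotypes.

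The change from 0 to 6 h did not differ between genotypes past the threshold in any broad region. On the rank score limma gave 0 calls (0.0% of the always-open regions), with a lowest adjusted p of 0.73. At an unadjusted p under 0.05, 2 regions were higher (0.813%) and 6 lower (2.44%), against 3.34% and 2.86% of the always-open regions. On length it gave 0 calls (0.0%), with a lowest adjusted p of 0.14, and 3 higher without KO, 0 h, replicate 1. At an unadjusted p under 0.05, 17 were higher (6.91%) and 8 lower (3.25%), against 3.76% and 2.79%. Like the other length counts, these are not independent of the width rule. Opposite moves, with no overlap between 0 and 6 h in either genotype, were seen on the rank score in 4 regions (higher in WT, lower in KO; 1.66% of the always-open regions) and 2 regions (the reverse; 1.57%). On called length they were seen in 5 regions (longer in WT, shorter in KO; 1.75%) and 6 regions (the reverse; 1.84%). The shares of the broad regions, 1.63%, 0.813%, 2.03% and 2.44%, lay near these backgrounds, and the fit of the difference called none. No stretch of 100 bp was under a peak in all 6 libraries of one genotype and in none of the other, where 0.0% and 0.0024% of the always-open regions held one. In the region that rose the most, chr9:85735522, the KO minus WT difference in rank score over all times was 0.31 (SE 0.20, limma adjusted p = 0.78), and that of the 6 h change was 0.27 (SE 0.50, limma adjusted p = 0.96). In chr14:103457135 they were −0.10 (SE 0.14, limma adjusted p = 0.92) and −0.46 (SE 0.34, limma adjusted p = 0.88). A p above the threshold does not show that the genotypes were alike.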

How the data were processed

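ATAC-seq peak lists of 12 mouse macrophage libraries, 1 per library, were analysed. The tools named in the submitters' processing notes are Bowtie2 2.1.0, Picard and MACS2, and the build is mm9; the peak names show that each library was called alone. No source used here gives the treatment of duplicates, the Tn5 offset or the caller settings. For each peak the authors deposited a fold ratio (summit over local background), the p-value and the q-value as −log10, plus an integer score equal to 10 times the latter. Peak widths and q grow with depth, so values were ranked or centred within a library before any comparison.

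Summit coverage and local background were recovered as reads from the fold, (coverage + 1)/(background + 1), and the Poisson p (100% of peaks within 0.001 in log10 p). The rank score is the normal score of (rank − 0.5)/n of the highest −log10 q. Both measures were fitted with limma 3.58.1 (R 4.3.3; 1 mean per genotype and time, eBayes with trend), which was tested on simulated data; Python 3.11.15, numpy 2.4.6, pandas 2.3.3 and scipy 1.17.1 did the rest.

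Named regions were, by rule, the 6 widest, the 5 highest and 3 lowest in percentile, up to 4 per measure and direction with an adjusted p under 0.05 and no overlap between groups, up to 4 with the longest gained or lost stretches, up to 4 with the largest summit moves, and those on either side of 2000 bp. The regions and lists were chosen with earlier results of these data known. Replicates were not duplicates of each other, with 0.019% to 0.041% identical peaks. The alternatives were the peak threshold, overlap, width limit, value ranked, centring, replicate block, depth covariate, stretch and move limits, and each library left out. Genes and sequences were not used here because the tables at hand are of another build.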

Additional observations from a re-analysis of the deposited data

Results flagged for a closer look

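In a few broad regions, at shares near those of all always-open regions, all libraries of one genotype moved one way between 0 and 6 h and all libraries of the other moved the opposite way. On the rank score, 4 regions (1.63%) were higher in WT and lower in KO (1.66% of the always-open regions) and 2 (0.813%) were lower in WT and higher in KO (1.57%). On called length, 5 regions (2.03%) were longer in WT and shorter in KO (1.75%) and 6 (2.44%) were shorter in WT and longer in KO (1.84%). The difference was not tested for these counts as such, which rest on 2 libraries per group. The limma fit of the difference in change between genotypes called 0 broad regions on either measure.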

How the results depend on the processing

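With a minimum width of 1500 bp there were 2031 regions and with 2500 bp 23. The higher rank calls at 6 h were 3 with the fold ranked, 3 with depth as a covariate, 3 with only peaks of −log10 q of at least 5 and 24 with summit coverage ranked. The lower ones were 14 with the fold ranked and 19 with the depth covariate. Longer regions at 2 h numbered 10 without centring, 0 with the replicate block, 0 with the depth covariate and 2 with the stricter peaks. At 6 h, 49 were longer and 2 shorter without centring, and 6 and 3 with the depth covariate. Among these settings, a share over the always-open regions is given only for summit coverage ranked. With a 200 bp minimum, 13 regions had gained and 1 had lost stretches. For chr14:103457135 the rank difference turned to 0.48 with summit coverage ranked. The cause was not tested. Without 1 library at a time there were 215 to 244 regions, 0 to 1 higher rank calls at 2 h, 2 to 5 higher and 18 to 29 lower at 6 h, 0 to 2 longer regions at 2 h, 10 to 19 longer and 5 to 16 shorter at 6 h, 0 to 3 calls in the difference of the length change, 31 to 39 regions with gained and 3 to 6 with lost stretches, and 13 to 18 with a moved summit. The stretch counts can only stay or rise when a library is left out, since fewer libraries must meet the rule. The no-overlap condition for moved summits is loosened in the same way. Of 263 alternatives run on the 17 named differences, 225 kept direction and side of the threshold, 37 lost the call and 1 turned direction. The 17 were picked as called, not overlapping and largest in these same libraries, so the tally is largely built in and is a description. A fit without a 2 h library also keeps both groups of a 6 h comparison whole. Same-numbered libraries did not deviate together in rank score over all always-open regions (15 correlations of −0.01 to 0.03). A shared origin that touches few regions or mainly depth could be missed this way. With the replicate number as a block, 1 region was shorter in KO (0 without), and no count at 6 h moved by over 1.5 times. Depth is known only as background coverage.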
